A study of Mus musculus with 6 samples.

Results

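The genes described here encode the enzymes and transporters that take up glucose and break it down to lactate or acetyl-CoA, together with the oxygen-sensing pathway and genes it induces. They were chosen by name as a list of 38 members, with the phosphofructokinases left out, and 36 of the 38 were found in a count table of 29493 genes; the HIF subunit gene Epas1 and the hydroxylase gene Egln3 are not analysed here. After a filter on low counts 35 members were among the 18067 genes tested, and the glucose transporter gene Slc2a3 was the one left out by it. The members were grouped into 14 genes of glucose uptake and glycolysis, 9 of lactate and pyruvate handling, 7 of oxygen sensing and 8 hypoxia-induced genes.

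RNA was sequenced from HT22 cells, a mouse hippocampal neuronal line, of the genotype HT22-TR/TO-V5Klf13-1. Every library came from this stably transfected line, in which a V5-tagged KLF13 is held under the tet repressor until doxycycline is added. The 2 groups were cells given Dox (doxycycline at 1 µg/ml for 8 hours, n = 3) and cells given Vehicle (n = 3). KLF13, a DNA-binding protein with zinc fingers, belongs to the Krüppel-like factors, and the study concerns how it acts in hippocampal neurons. The labels name 1 line and do not say whether it is a single clone or whether the 3 samples of a group were grown as separate cultures. The p-values therefore rest on a spread that may be purely technical. All cells carried the transgene, so effects of doxycycline itself and of KLF13 cannot be told apart.

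Glycolysis converts glucose to pyruvate in the cytosol through a chain of enzymes, several of which exist as isozymes encoded by separate genes. Lactate dehydrogenase turns pyruvate into lactate, while the pyruvate dehydrogenase complex sends it into the mitochondria as acetyl-CoA and is switched off by pyruvate dehydrogenase kinases. When oxygen is present, the prolyl hydroxylases encoded by the Egln genes mark the HIF alpha subunits, and the VHL ubiquitin ligase subunit then directs them to degradation. When oxygen is short the alpha subunits persist, pair with ARNT and raise transcription of glucose transporters, glycolytic enzymes and genes such as Vegfa and Bnip3. Neurons in the brain rely on glucose, and many cultured lines run glycolysis strongly in medium rich in it.

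Library totals lay between 41595000 and 48172000 counts in Dox and between 38567000 and 52930000 counts in Vehicle. Klf13, the induced gene, stood at 192.0 ± 11.1 CPM (the gene's count scaled by the effective library size) in Dox and 37.4 ± 1.55 CPM in Vehicle (SD, n = 3 each). Of 13 neuronal markers checked, Tubb3 and Syn1 were above 1 CPM, Syp, Map2, Slc17a7 and Prox1 were below 1 CPM, and the other 7 are not analysed here. The neuronal markers summed to between 21.3 and 22.1 CPM in Dox and between 71.8 and 73.2 CPM in Vehicle, and 2 of the 3 tested fell. The 8 fibroblast markers summed to between 8179 and 8559 CPM in Dox and between 10016 and 10543 CPM in Vehicle, and 5 of the 7 tested fell. Markers of other brain and vessel cells summed to at most 47.3 CPM for astrocytes and 28.4 CPM for microglia in Dox. For endothelium and oligodendrocytes the sums were at most 4.84 and 1.17 CPM in Dox. In Vehicle the sums were at most 40.1, 37.5, 3.34 and 2.25 CPM in that order. In Dox the astrocyte and microglia sums were above the neuronal sum, and in Vehicle they were below it. In Dox, Slc1a3 averaged 45.7 CPM of the astrocyte sum, Tubb3 14.7 CPM of the neuronal and Col1a2 4387 CPM of the fibroblast sum. The fibroblast marker Dcn averaged 4.24 CPM there. The part of any of these in the results below was not tested. In bulk RNA, fewer cells of a kind and less RNA per cell cannot be told apart.

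More members fell than rose with Dox, and most of the changes were small. Of the 35 tested members, 18 fell, 4 rose and 13 did not pass edgeR's quasi-likelihood test at an adjusted p under 0.05. Among all genes tested 28.8% fell and 25.9% rose by that rule, together 54.7%, against 62.9% of the members. With a change of at least 1.5-fold required as well, 6 members fell (Hk1, Eno2, Pdk1, Egln2, Vhl and Bnip3l) and 2 rose (Pdhb and Ankrd37), together 22.9% of those tested, beside 22.1% of all genes (14.8% lower and 7.32% higher). Taking both directions together, the share of members called, with or without the fold limit, was thus near that of all genes. Without the fold limit the split by direction was not, with 18 of 35 members lower and 4 higher, beside 28.8% and 25.9% of all genes. Members were chosen with earlier results of these data known, so these shares are no measure of an excess. The median log2 fold change was -0.17 for the members and 0.018 for all genes tested. The Dox and Vehicle libraries did not overlap for 23 of the 35 members, a separation seen for 64% of all genes tested.

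The balance of rises and falls depended on how libraries were scaled. Under upper-quartile scaling, which shifted the median of all genes to 0.11 on the log2 scale, 12 members rose and 14 fell, and over all genes 6246 rose and 4457 fell. The members that changed at least 1.5-fold were 6 lower and 2 higher under that scaling too. Without Dox replicate 3, 1 member rose at least 1.5-fold, as Pdhb, at 1.52-fold with all libraries, lay close to the limit.

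**Figure D1:**
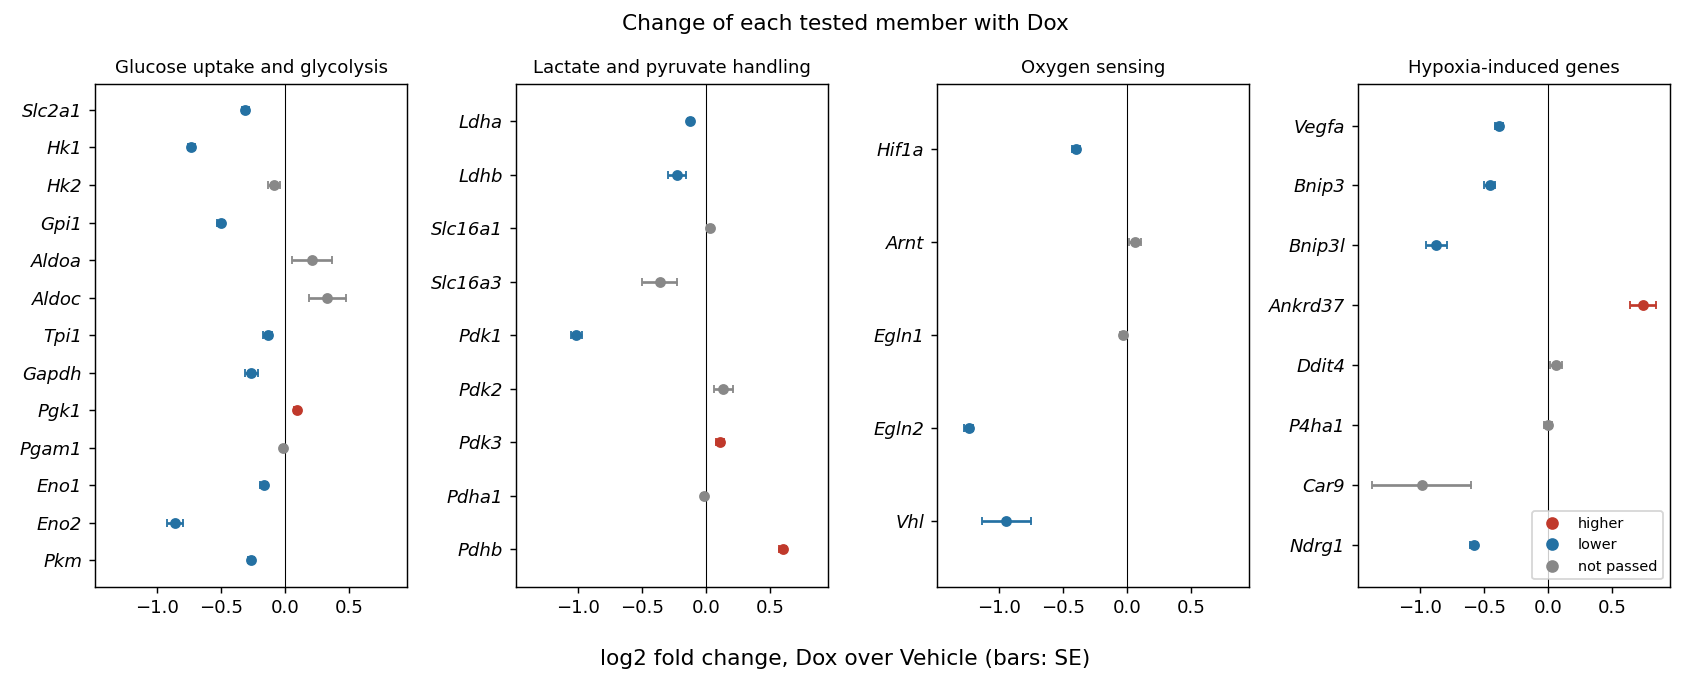
Log2 fold change of each of the 35 tested members, Dox over Vehicle, with bars showing the standard error, in 4 panels by role. Blue points passed the test as lower (18 members), red as higher (4) and grey points did not pass (13).

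**Figure D2:**
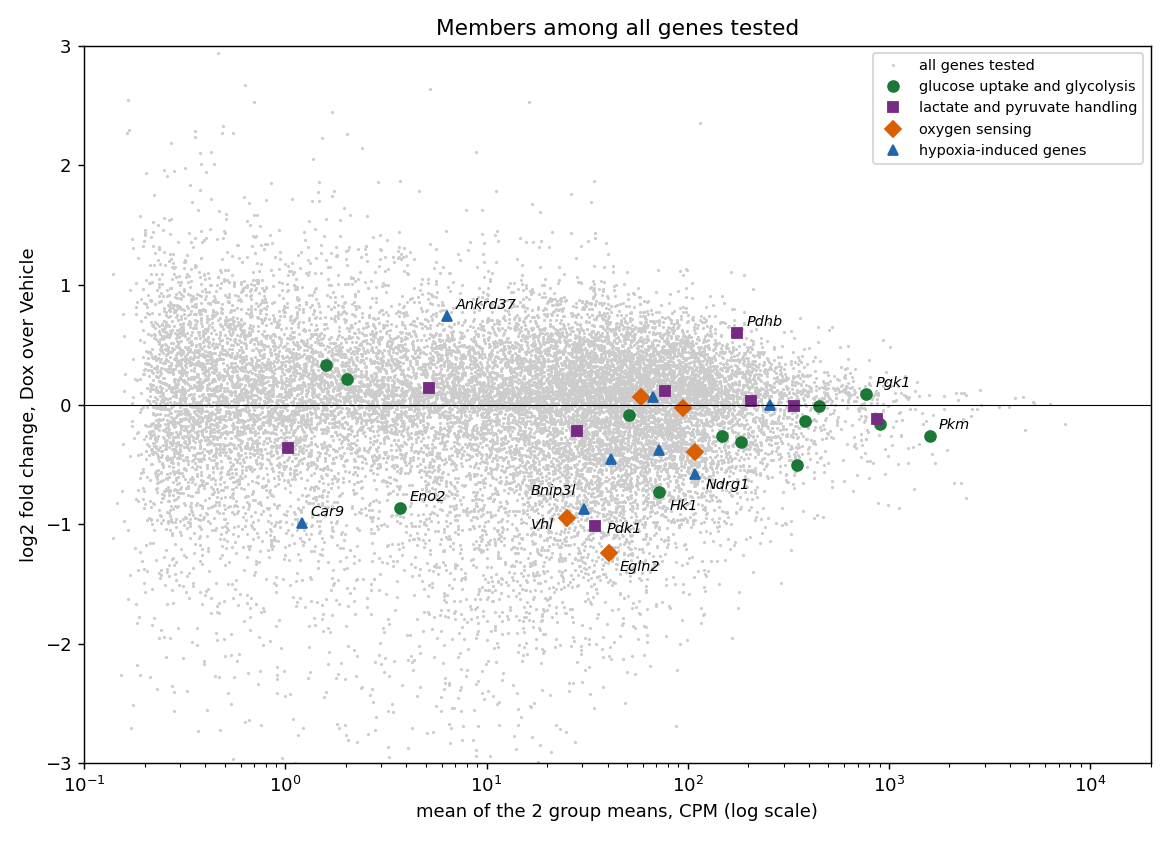
Log2 fold change, Dox over Vehicle, against mean level in CPM on a log axis, for all 18067 genes tested (grey) and the 35 members (coloured by role). The members lie between -1.24 and 0.74 on an axis cut at 3 in either direction, beyond which 53 other genes fall.

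Promoters are shown for 6 of these 8 members, and for Hk2 and Pdk3 as isozyme partners that changed by less than 1.5-fold, because Krüppel-like factors are known to bind GC-rich boxes and HIF binds a short core. RefSeq windows on GRCm38.p6, from 250 bases before to 50 bases after a transcript start, were found for 34 of the 38 members, with 46 windows in all. Capitals mark every GC box (GGGCGG) and every HIF core (ACGTG or GCGTG), searched on both strands, and neighbouring matches can run together. The windows shown are Egln2 at chr7:27166753-27167052 (minus strand), Pdk1 at chr2:71872974-71873273 (plus), Hk1 at chr10:62340372-62340671 (minus), its partner Hk2 at chr6:82774405-82774704 (minus), Pdk3, the partner of Pdk1, at chrX:93832101-93832400 (minus), Vhl at chr6:113623744-113624043 (plus), Pdhb at chr14:8172943-8173242 (minus) and Ankrd37 at chr8:45999801-46000100 (minus).
Egln2: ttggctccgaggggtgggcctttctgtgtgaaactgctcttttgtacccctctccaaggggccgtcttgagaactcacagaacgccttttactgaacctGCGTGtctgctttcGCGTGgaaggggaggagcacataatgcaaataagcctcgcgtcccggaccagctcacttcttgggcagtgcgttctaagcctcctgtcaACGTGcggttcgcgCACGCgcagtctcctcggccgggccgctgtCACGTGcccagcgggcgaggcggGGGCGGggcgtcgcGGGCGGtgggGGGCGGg
Pdk1: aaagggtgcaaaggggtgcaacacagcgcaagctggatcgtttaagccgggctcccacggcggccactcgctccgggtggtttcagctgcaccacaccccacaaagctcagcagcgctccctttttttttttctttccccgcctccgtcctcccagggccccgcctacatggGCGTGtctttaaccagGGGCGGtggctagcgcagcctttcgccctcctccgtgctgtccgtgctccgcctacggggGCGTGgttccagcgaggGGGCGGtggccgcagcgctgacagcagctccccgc
Pdk3: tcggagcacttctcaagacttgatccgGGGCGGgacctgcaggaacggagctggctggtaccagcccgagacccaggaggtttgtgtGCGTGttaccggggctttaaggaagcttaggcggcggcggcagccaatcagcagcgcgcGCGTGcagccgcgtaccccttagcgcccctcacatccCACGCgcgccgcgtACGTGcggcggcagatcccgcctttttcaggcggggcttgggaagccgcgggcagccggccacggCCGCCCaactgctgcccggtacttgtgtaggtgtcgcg
Hk1: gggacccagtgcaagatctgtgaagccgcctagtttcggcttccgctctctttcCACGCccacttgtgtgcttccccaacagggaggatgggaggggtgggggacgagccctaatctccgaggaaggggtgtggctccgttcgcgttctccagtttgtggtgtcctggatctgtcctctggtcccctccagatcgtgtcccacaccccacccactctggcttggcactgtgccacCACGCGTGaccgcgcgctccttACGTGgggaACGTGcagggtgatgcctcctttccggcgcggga
Hk2: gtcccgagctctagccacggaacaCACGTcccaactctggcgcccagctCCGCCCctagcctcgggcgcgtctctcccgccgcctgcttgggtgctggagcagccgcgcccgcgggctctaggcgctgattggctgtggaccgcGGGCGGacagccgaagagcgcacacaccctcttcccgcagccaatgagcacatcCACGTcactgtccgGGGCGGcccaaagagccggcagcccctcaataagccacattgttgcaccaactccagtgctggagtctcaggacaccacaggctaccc
Vhl: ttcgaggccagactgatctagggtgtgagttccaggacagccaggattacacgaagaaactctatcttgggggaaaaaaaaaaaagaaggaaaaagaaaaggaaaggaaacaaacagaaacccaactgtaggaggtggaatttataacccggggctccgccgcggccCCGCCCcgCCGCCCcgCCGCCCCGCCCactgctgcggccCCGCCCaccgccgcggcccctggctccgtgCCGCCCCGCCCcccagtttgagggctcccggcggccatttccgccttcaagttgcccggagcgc
Pdhb: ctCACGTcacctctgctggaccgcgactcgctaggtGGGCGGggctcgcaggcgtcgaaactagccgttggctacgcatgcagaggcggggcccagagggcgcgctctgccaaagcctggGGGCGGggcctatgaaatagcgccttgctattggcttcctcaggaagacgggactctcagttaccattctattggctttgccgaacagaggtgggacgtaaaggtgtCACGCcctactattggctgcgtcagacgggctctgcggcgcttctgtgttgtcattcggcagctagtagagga
Ankrd37: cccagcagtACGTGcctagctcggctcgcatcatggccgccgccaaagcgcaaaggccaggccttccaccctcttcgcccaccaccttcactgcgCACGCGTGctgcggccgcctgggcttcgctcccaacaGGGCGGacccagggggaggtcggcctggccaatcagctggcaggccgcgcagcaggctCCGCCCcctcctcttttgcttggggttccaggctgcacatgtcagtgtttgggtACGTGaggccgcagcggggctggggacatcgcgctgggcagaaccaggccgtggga

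These windows differ in what they hold. The Vhl window has 7 GC boxes and 0 HIF cores, and the Hk1 window has 0 GC boxes and 5 HIF cores, beside 3 and 2 in that of Hk2. The Pdk1 window has 2 of each, and that of Pdk3 has 2 GC boxes and 4 HIF cores. Egln2 has 3 GC boxes and 6 HIF cores, Pdhb has 2 of each, and Ankrd37 has 2 GC boxes and 4 HIF cores, so both motifs occur in windows of genes that fell and of genes that rose. For Egln2, Hk1 and Pdk1 the window with the more matches is shown. Their other windows hold 0 GC boxes, with 1 HIF core for Egln2 and 0 for Hk1 and Pdk1, and the window of Eno2, not shown, holds 0 of either motif. Over all members, 60.9% of the 46 windows held a GC box and 78.3% a HIF core, beside 35.7% and 43.8% of all 32851 windows. A CACCC box (CACCC, both strands), which can share end letters with a GC box or a HIF core and is not marked above, was in 69.6% of member windows and 57.5% of all windows. The member windows were richer in G and C, with a median of 63% against 52.7%, and the part of base composition in these shares was not tested. A GC box was in 54.2% of 24 windows of members that fell, in all 4 windows of members that rose and in 58.8% of 17 windows of members that did not pass. A HIF core was in 66.7%, 100% and 88.2% of the same windows in that order, and a CACCC box in 62.5%, 50% and 82.4%.

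Along the glycolytic chain, Hk1 and Eno2 fell most and the abundant later enzymes changed by less than 1.5-fold. In glucose uptake and glycolysis 8 of 13 tested genes fell, 4 did not pass and 1 rose, with a median log2 fold change of -0.17. The share called was 69.2%, beside 54.7% of all genes tested. Hk1, the ubiquitous hexokinase that phosphorylates glucose on entry, had 54.4, 54.3 and 53.5 CPM in the Dox libraries, against 88.8, 91.5 and 89.7 CPM in the Vehicle libraries. The 3 Dox libraries lay close together and far below every Vehicle library. The fall was 1.66-fold (log2 fold change -0.73 ± 0.026 SE, edgeR adjusted p = 3.9e-06). Hk1 lies on the minus strand of chromosome 10 from 62268855 to 62379908 (GRCm38, GENCODE M21) and shares 157 exonic bases with the antisense gene Hk1os.

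Hk2, the inducible hexokinase that HIF can raise, had 50.1, 51.1 and 47.3 CPM in Dox and 49.6, 54.3 and 53.8 CPM in Vehicle. The groups overlapped and the gene did not pass (log2 fold change -0.087 ± 0.050). Slc2a1, the glucose transporter GLUT1 and a HIF target, had 161, 171 and 163 CPM in Dox and 208, 203 and 203 CPM in Vehicle, a fall of 0.31 ± 0.029 on the log2 scale (edgeR adjusted p = 1.6e-04). Every Dox library was below every Vehicle library. Slc2a3, the neuronal glucose transporter GLUT3, had 0 counts in all 3 Dox libraries and 5, 0 and 0 in the Vehicle libraries, so neither group showed a level above the counting floor.

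Gpi1, which isomerises glucose 6-phosphate, averaged 291.0 ± 1.41 CPM in Dox and 412 ± 12.8 CPM in Vehicle (SD, n = 3 each) and fell 1.42-fold. Smaller falls were seen for Gapdh (by 0.26 ± 0.053 on the log2 scale), the pyruvate kinase gene Pkm (by 0.27 ± 0.025), Eno1 (by 0.17 ± 0.027), the general enolase, and the triose phosphate isomerase gene Tpi1 (by 0.14 ± 0.037). Pgk1, which makes the first ATP of the chain, was the one member of glucose uptake and glycolysis that rose. It averaged 799 ± 14.4 CPM in Dox, against 750.0 ± 4.65 CPM in Vehicle (SD, n = 3 each), a 1.06-fold change. The phosphoglycerate mutase gene Pgam1 did not pass and had a log2 fold change of -0.013 ± 0.021. The falls of Eno1 and Tpi1 did not pass under upper-quartile scaling (edgeR adjusted p = 0.078 and 0.40), and that of Tpi1 did not pass without Dox replicate 1, 2 or 3 (edgeR adjusted p = 0.080, 0.065 and 0.067).

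Eno2, the neuronal enolase, had 2.72, 2.67 and 2.51 CPM in Dox, against 4.90, 4.78 and 4.73 CPM in Vehicle. All Dox libraries were below all Vehicle libraries, and the fall was 1.82-fold (log2 fold change -0.86 ± 0.062 SE, edgeR adjusted p = 4.9e-05). Eno1, its partner, had 867, 845 and 858 CPM in Dox and 994, 948 and 941 CPM in Vehicle. The aldolase genes did not pass. Aldoc, the brain aldolase, averaged 1.77 ± 0.262 CPM in Dox and 1.40 ± 0.172 CPM in Vehicle (SD, n = 3 each), with 2.07, 1.58 and 1.66 CPM in the Dox libraries and 1.25, 1.58 and 1.37 CPM in the Vehicle libraries. Aldoa, the muscle and general aldolase, had 2.51, 2.27 and 1.76 CPM in Dox and 2.12, 1.78 and 1.76 CPM in Vehicle. In GENCODE M21 the symbol Aldoa stands for 2 genes on the minus strand of chromosome 7, from 126795234 to 126800751 and from 126800790 to 126809108. Which of them the Aldoa counts hold cannot be told from the table, so its level is uncertain.

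**Figure D3:**
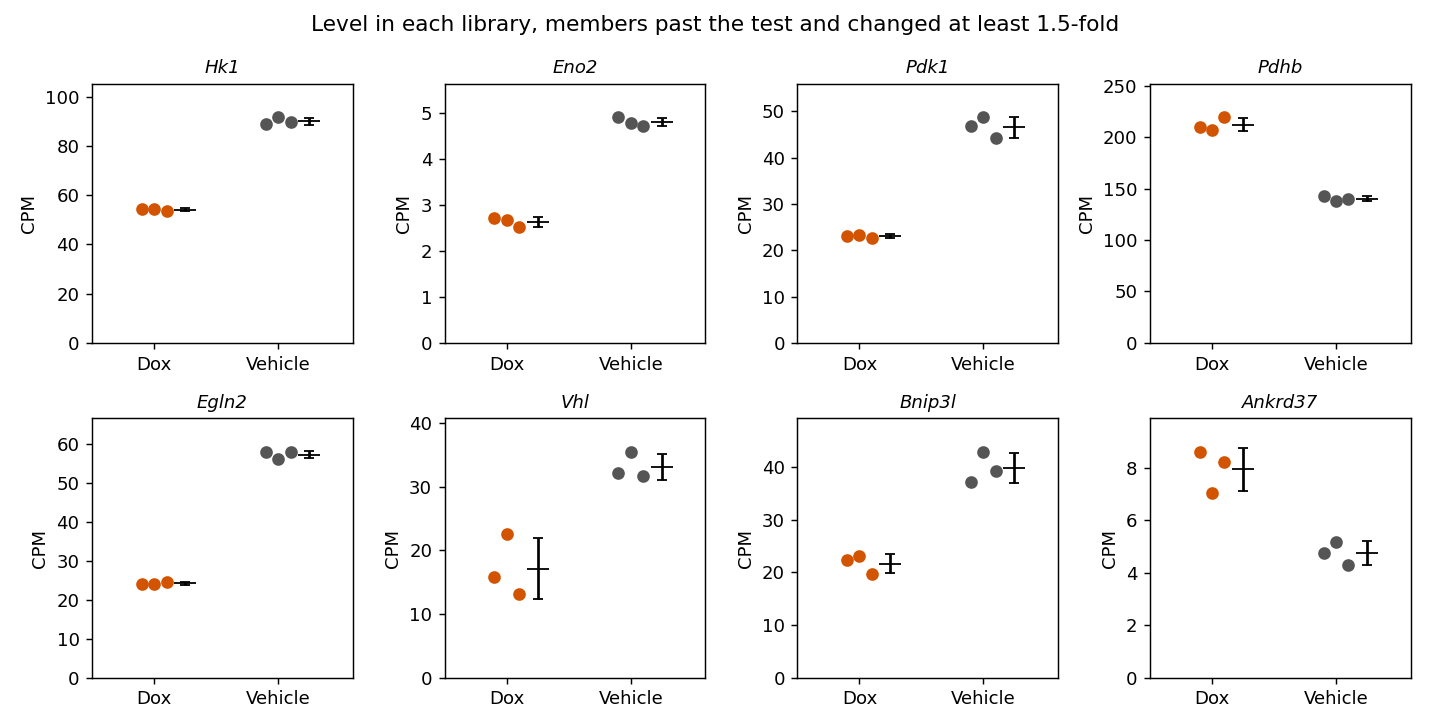
Level in CPM in each library for the 8 members that passed the test and changed at least 1.5-fold, with Dox left and Vehicle right, and bars showing the mean and SD of 3 libraries. Dox and Vehicle libraries do not overlap in any panel, and Vhl has the widest spread among the Dox libraries for its mean, from 13.2 to 22.5 CPM.

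Several glycolytic genes have near-identical copies among other annotated genes, which took up counts of their own. For 13 members the count table listed other annotated genes that matched the member's longest transcript over at least 300 bases at 95% identity or more. One of them, Pdha1, matched only Map3k15, a protein-coding neighbour that shares 603 exonic bases with it on the opposite strand, with a mean count 0.45% of that of Pdha1. Map3k15 was not treated as a copy, which left 12 members. Gm45507, an antisense gene that shares 504 exonic bases with Bnip3, was kept among the copies of Bnip3. For Gapdh there were 73 such genes, whose counts together were 599% of the counts of Gapdh itself. The copies held 106% of the counts of Eno1, 63.9% of Pgk1, 34.0% of Pgam1, 18.7% of Bnip3l, 15.3% of Pkm and 13.8% of Pdhb. For the rest of these members the part lay between 1.99% for Ldha and 8.28% for Ldhb. How reads that match several genes were assigned is not given in the sources used here, so the split of reads between these members and their copies is uncertain. With the copies' counts added to each member, a step chosen after seeing the data, 22 members passed, 18 lower and 4 higher. The share of all genes called was 54.7% without this step and is not given with it. Gapdh with its copies had a log2 fold change of -0.18 ± 0.028 and Eno1 with its copies one of -0.17 ± 0.027.

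**Figure D4:**
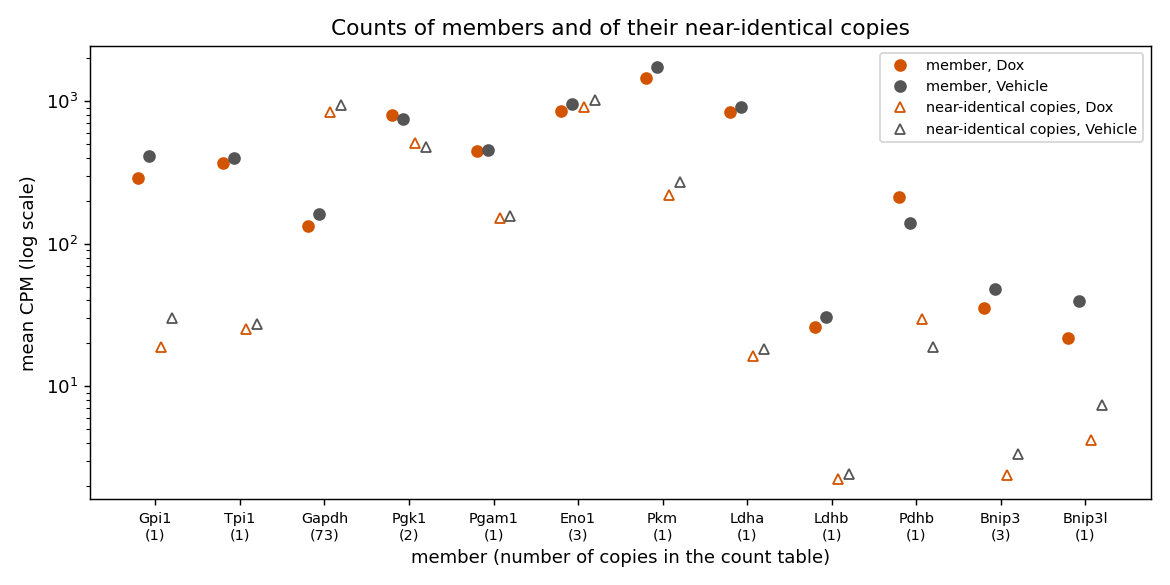
Mean CPM on a log axis of 12 members (filled circles) and of the summed counts of their near-identical copies (open triangles), Dox in orange left of Vehicle in grey. The copies of Gapdh summed to 833 CPM in Dox and 933 CPM in Vehicle, above Gapdh itself at 134 and 161 CPM.

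Per kilobase of transcript, with copies left out, Pkm had the highest level of the members. It stood at 597 CPM per kb in Dox and 719 in Vehicle. Ldha followed in both groups, at 461 CPM per kb in Dox and 501 in Vehicle. Pgk1 stood at 438 CPM per kb in Dox and 411 in Vehicle, and Eno1 at 423 in Dox and 474 in Vehicle, so that Pgk1 came before Eno1 in Dox and after it in Vehicle. The counts of near-identical copies are not part of these levels. Copies of Eno1 summed to 904 CPM in Dox and 1019 CPM in Vehicle, and those of Gapdh to 833 and 933 CPM. Those of Pgk1 summed to 512 and 478 CPM, those of Pkm to 221 and 270 and those of Ldha to 16.4 and 18.3. The order above therefore depends on how reads were split between members and copies. At the other end of the tested members, Slc16a3 had 0.209 CPM per kb in Dox and 0.268 in Vehicle. Summed over the 14 genes of glucose uptake and glycolysis, Dox libraries held between 4610 and 4644 CPM and Vehicle libraries between 5195 and 5298 CPM.

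Genes that decide the fate of pyruvate moved in both directions. In lactate and pyruvate handling 3 genes of 9 fell, 4 did not pass and 2 rose, whereas under upper-quartile scaling 1 fell and 5 rose. The median log2 fold change was -0.012. With all libraries and the main scaling 55.6% of these genes were called, near the 54.7% of all genes tested. Pdk1, a kinase that inactivates pyruvate dehydrogenase and a HIF target, had 23.1, 23.3 and 22.7 CPM in Dox, against 46.9, 48.7 and 44.1 CPM in Vehicle. Every Dox library was far below every Vehicle library, and the Dox libraries were the closer together. The fall was 2.02-fold (log2 fold change -1.01 ± 0.046 SE, edgeR adjusted p = 8.1e-06). Pdk1 lies on chromosome 2 from 71873224 to 71903858.

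The sister kinase Pdk3 averaged 79.7 ± 0.525 CPM in Dox and 73.8 ± 1.93 CPM in Vehicle (SD, n = 3 each), a rise of 0.11 ± 0.029 on the log2 scale. Pdk2 did not pass, at 5.45 ± 0.312 CPM in Dox and 4.96 ± 0.338 CPM in Vehicle (SD, n = 3 each). Pdhb, the beta subunit of the E1 enzyme of the complex, had 210, 208 and 219 CPM in Dox, against 143, 138 and 140 CPM in Vehicle. All Dox libraries were above all Vehicle libraries, and the rise was 1.52-fold (log2 fold change 0.60 ± 0.030 SE, edgeR adjusted p = 1.1e-05). Pdha1, the alpha subunit that pairs with it, did not pass, with 335 ± 5.10 CPM in Dox and 337 ± 3.19 CPM in Vehicle (SD, n = 3 each). Pdhb lies on chromosome 14 from 8165996 to 8173025.

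For lactate, Ldha, the isoform that favours lactate production, averaged 836 ± 5.21 CPM in Dox and 910.0 ± 6.14 CPM in Vehicle (SD, n = 3 each), a 1.09-fold fall. Its libraries stood at 838, 830.3 and 840.1 CPM in Dox and at 916, 904 and 909.6 CPM in Vehicle, with no overlap. Ldhb, the heart isoform, had 26.0, 23.8 and 28.5 CPM in Dox and 31.4, 29.8 and 30.2 CPM in Vehicle, a fall of 0.22 ± 0.071 on the log2 scale near the threshold (edgeR adjusted p = 0.035). The monocarboxylate transporter genes did not pass. Slc16a1, encoding MCT1, had 208, 208 and 208 CPM in Dox and 202, 209 and 201 CPM in Vehicle, and Slc16a3, encoding the lactate exporter MCT4, had 0.869, 1.03 and 0.817 CPM in Dox and 1.06, 1.18 and 1.25 CPM in Vehicle.

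Small changes in this group depended on single libraries and on scaling. Without Dox replicate 1, or without Vehicle replicate 3, 3 of the 9 genes passed. Pdk3 was lost in both (edgeR adjusted p = 0.056 and 0.059), and Ldhb in both (0.096 and 0.076). Ldhb also did not pass without Dox replicate 2 or Vehicle replicate 1 or 2 (0.081, 0.095 and 0.061), and under upper-quartile scaling neither Ldha nor Ldhb passed (0.28 and 0.18). Slc16a3 passed without Dox replicate 2 (edgeR adjusted p = 0.044).

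For Hk1 with Hk2, Eno2 with Eno1 and Slc16a3 with Slc16a1, the share of the first gene in the pair was lower in Dox without overlap, in a design that cannot give an exact p below 0.1. Hk1 made up 58.3, 57.8 and 59.3% of the summed hexokinase level (Hk1 and Hk2, per kb) in Dox, against 69.8, 68.5 and 68.2% in Vehicle. The means were 58.5 ± 0.796% in Dox and 68.8 ± 0.826% in Vehicle (SD, n = 3 each), a difference of -10.3 percentage points with no overlap. An exact two-sided permutation test gave p = 0.1, the smallest that 3 against 3 libraries allow, and 0.2 adjusted over the 6 pairs compared. Eno2 made up 0.223 ± 0.0094% of Eno1 and Eno2 in Dox and 0.361 ± 0.0042% in Vehicle (SD, n = 3 each; exact permutation p = 0.1). With the copies of Eno1 added that difference was -0.067 rather than -0.14 percentage points. The pair leaves out Eno3, the muscle enolase, which fell and had 5.82 CPM per kb in Dox and 8.48 in Vehicle, above Eno2 in both, and Eno4, which rose and had 0.898 CPM per kb in Dox and 0.403 in Vehicle. Of all 4 enolase genes, a comparison added after the values were seen, Eno2 made up 0.219 ± 0.0091% in Dox and 0.355 ± 0.0038% in Vehicle (SD, n = 3 each), also without overlap.

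Slc16a3 made up 0.442 ± 0.055% of the pair with Slc16a1 in Dox and 0.579 ± 0.051% in Vehicle (SD, n = 3 each; exact permutation p = 0.1), with no overlap. In the other pairs the groups overlapped. Ldhb made up 4.16 ± 0.336% of its pair with Ldha in Dox and 4.45 ± 0.095% in Vehicle (SD, n = 3 each; exact permutation p = 0.3, adjusted 0.45), and Aldoc 31.2 ± 3.20% of its pair with Aldoa in Dox and 29.3 ± 4.34% in Vehicle (SD, n = 3 each; exact permutation p = 0.6, adjusted 0.72). Slc2a3, at 0 in Dox, made up 0.0175% of its pair with Slc2a1 in Vehicle, all of it from Vehicle replicate 1. Without Vehicle replicate 1 the Aldoc difference turned to -0.51 percentage points. Which gene the Aldoa counts hold cannot be told, so the Aldoc share is uncertain as well. Among the kinases, a comparison chosen after the values were seen, Pdk1 made up 9.98 ± 0.211% of the summed level of Pdk1, Pdk2 and Pdk3 per kb in Dox and 19.5 ± 0.549% in Vehicle (SD, n = 3 each). Pdk3 made up 84.6% in Dox and 75.7% in Vehicle. The sum of the 3 was 44.5 ± 0.287 CPM per kb in Dox and 46.1 ± 1.28 in Vehicle (SD, n = 3 each), and these sums overlapped between the groups. With Pdk4, a kinase gene outside the member list that fell to 1.70 CPM per kb in Dox, against 2.73 in Vehicle, the sum was 46.2 ± 0.265 CPM per kb in Dox and 48.8 ± 1.46 in Vehicle (SD, n = 3 each), without overlap. Pdk1 then made up 9.61 ± 0.196% in Dox and 18.4 ± 0.524% in Vehicle (SD, n = 3 each).

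**Figure D5:**
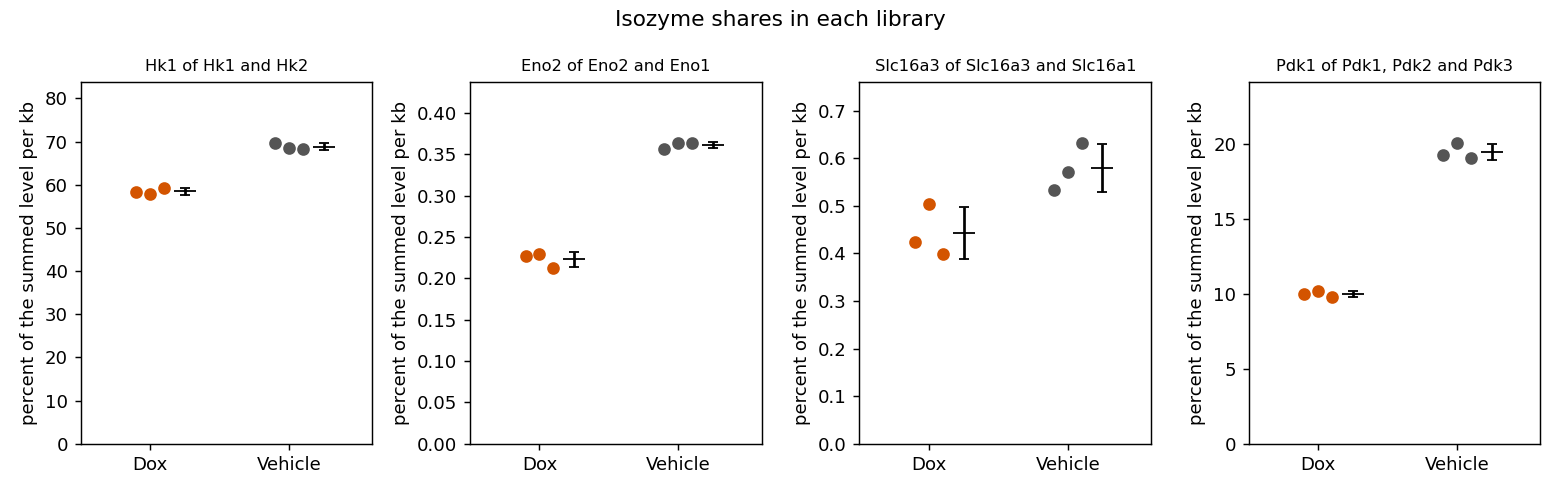
Share of 1 isozyme in the summed level per kb of the genes named above each panel, in each library, Dox left and Vehicle right, with mean and SD of 3 libraries. Hk1 averaged 58.5% in Dox and 68.8% in Vehicle, and Pdk1 averaged 9.98% in Dox and 19.5% in Vehicle.

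The oxygen sensors held the largest fall of any member. In oxygen sensing 3 of 5 tested genes fell and 2 did not pass, with a median log2 fold change of -0.40. The share called, 60%, was near the 54.7% of all genes tested. Egln2, which encodes the prolyl hydroxylase PHD1, had 24.0, 24.1 and 24.6 CPM in Dox, against 57.8, 56.1 and 57.8 CPM in Vehicle. The 3 libraries of each group differed by less than 2 CPM while the groups stood far apart. The fall was 2.36-fold (log2 fold change -1.24 ± 0.033 SE, edgeR adjusted p = 1.7e-06). Egln2 lies on chromosome 7 from 27158658 to 27166802 and shares no stretch of 50 or more exonic bases with another annotated gene.

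Vhl, the gene of the ubiquitin ligase subunit, had 15.8, 22.5 and 13.2 CPM in Dox, against 32.2, 35.4 and 31.6 CPM in Vehicle. The Dox libraries were all lower but spread widely, with replicate 2 above the other two. The fall was 1.93-fold (log2 fold change -0.95 ± 0.19 SE, edgeR adjusted p = 0.0058), and leaving out single libraries moved it between -1.19 and -0.78. Hif1a, the oxygen-regulated HIF subunit, had 91.9, 95.5 and 93.2 CPM in Dox, against 122, 128 and 121 CPM in Vehicle, a 1.32-fold fall without overlap (log2 fold change -0.40 ± 0.032 SE, edgeR adjusted p = 8.0e-05). HIF1A protein is controlled mainly through its stability, which was not measured. Its partner Arnt averaged 59.8 ± 3.71 CPM in Dox and 57.2 ± 0.979 CPM in Vehicle, and Egln1, encoding the main HIF hydroxylase PHD2, 94.2 ± 2.19 CPM in Dox and 96.1 ± 1.01 CPM in Vehicle (SD, n = 3 each). Neither passed, with log2 fold changes of 0.063 ± 0.049 and -0.029 ± 0.028.

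Hypoxia-induced genes did not move as 1 group. Of the 8 tested, 4 fell, 1 rose and 3 did not pass, with a median log2 fold change of -0.42. The share called was 62.5%, beside 54.7% of all genes tested. The mitophagy receptor gene Bnip3l had 22.3, 23.1 and 19.7 CPM in Dox, against 37.1, 42.8 and 39.2 CPM in Vehicle. The groups were apart and the fall was 1.83-fold (log2 fold change -0.87 ± 0.080 SE, edgeR adjusted p = 1.5e-04). Its relative Bnip3 had 33.3, 36.7 and 35.6 CPM in Dox and 48.8, 47.6 and 48.5 CPM in Vehicle, a fall of 0.46 ± 0.044 on the log2 scale. Vegfa, the vascular growth factor and a textbook HIF target, had 63.0, 61.8 and 63.0 CPM in Dox and 79.1, 81.9 and 83.7 CPM in Vehicle, a fall of 0.38 ± 0.031. Ndrg1, a stress-responsive gene raised by hypoxia, averaged 87.2 ± 2.18 CPM in Dox and 131 ± 0.479 CPM in Vehicle (SD, n = 3 each), a fall of 0.58 ± 0.027 on the log2 scale that lies just under the 1.5-fold limit. In each of these the Dox libraries were all below the Vehicle libraries.

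Ankrd37, an ankyrin-repeat gene and HIF target, went the other way. It had 8.60, 7.03 and 8.21 CPM in Dox, against 4.77, 5.19 and 4.30 CPM in Vehicle. All Dox libraries were higher, by 1.67-fold (log2 fold change 0.74 ± 0.10 SE, edgeR adjusted p = 0.0011). Ankrd37 lies on chromosome 8 from 45996902 to 46005707 and shares exonic bases with 2 genes on the opposite strand, 57 with Ufsp2 and 349 with Lrp2bp. Ufsp2 stood at a mean of 34.3 CPM over all libraries with a log2 fold change of 0.39. The level of Lrp2bp, which shares the longer stretch, is not given here. Since the strand setting is not given, reads of the shared bases cannot be told apart.

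The remaining hypoxia-induced genes did not pass. Ddit4, the mTORC1 inhibitor REDD1, had 67.1, 71.0 and 67.6 CPM in Dox and 65.8, 62.2 and 69.2 CPM in Vehicle, and P4ha1, a collagen prolyl hydroxylase gene, averaged 257 ± 6.27 CPM in Dox and 257 ± 6.90 CPM in Vehicle (SD, n = 3 each). Their log2 fold changes were 0.060 ± 0.048 and -0.0034 ± 0.030. Car9, the membrane carbonic anhydrase used as a hypoxia marker, was near the bottom of the range at 1.27, 0.466 and 0.709 CPM in Dox and 1.62, 1.13 and 2.04 CPM in Vehicle. The groups overlapped through Dox replicate 1, and the log2 fold change was -0.99 ± 0.39 (edgeR adjusted p = 0.072). Without Dox replicate 1 it was -1.45 and passed (edgeR adjusted p = 0.017), and it was between -1.19 and -0.70 without any other library. Car9 shares 214 exonic bases with the antisense gene Gm12454, which had a log2 fold change of -1.14.

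Genes of the same pathways outside the member list were counted as well. For glycolysis and pyruvate metabolism 11 of 20 tested genes rose, 4 fell and 5 did not pass, with a median log2 fold change of 0.20. Among hypoxia-induced and HIF pathway genes 18 of 33 tested fell, 6 rose and 9 did not pass, with a median of -0.27. The shares called, 75% and 72.7%, stand beside 54.7% of all genes tested. These lists, like the members, were chosen with earlier results of these data known. Neither their shares nor those of the members are thus a measure of an excess. All 3 called genes that averaged 2 CPM or more and changed at least 2-fold were lower in Dox; Eno4 and Adm rose at least 2-fold below that level. Hif1an, which encodes the asparagine hydroxylase FIH that restrains HIF activity, averaged 34.5 ± 0.373 CPM in Dox and 86.3 ± 2.08 CPM in Vehicle (SD, n = 3 each), a 2.50-fold fall. The phosphoglucomutase gene listed as Pgm2 averaged 23.0 ± 0.323 CPM in Dox and 69.1 ± 2.54 CPM in Vehicle, a 3.01-fold fall. Pdp1, a phosphatase that reactivates pyruvate dehydrogenase, averaged 11.8 ± 0.567 CPM in Dox and 25.2 ± 1.80 CPM in Vehicle, a 2.14-fold fall (SD, n = 3 each). The sister genes of these 2 went the other way. Pgm1 rose by 0.37 ± 0.026 and Pdp2 by 0.29 ± 0.071 on the log2 scale. Of the genes named here that limit HIF, Egln2, Vhl and Hif1an thus had lower levels in Dox than in Vehicle, while Egln1 did not pass. Hif1an was named by the 2-fold rule from a list chosen with earlier results known. Among the genes described above as HIF targets, Slc2a1, Pdk1 and Vegfa fell and Ankrd37 rose. Whether HIF activity changed was not tested.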

How the data were processed

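Per the file headers, the authors deposited whole-number counts for each gene symbol in 6 columns, 1 a library, with no normalization. HISAT2 2.1.0, StringTie 1.3.3, FastQC 0.11.3, DESeq2 and the build GRCm38 appear in the submitters' processing notes, without their roles; no annotation, strand setting or treatment of multi-mapping reads is given in the sources used here. After edgeR's filterByExpr and TMM scaling (factors 0.970 to 1.03), Dox and Vehicle were compared with the quasi-likelihood test of edgeR 4.0.16 (limma 3.58.1, R 4.3.3). Benjamini-Hochberg adjustment ran over all 18067 genes tested, with 0.05 as threshold, and each SE is the log2 fold change divided by the root of F. The common biological coefficient of variation, as edgeR names it, came to 12.0%. Single members could pass at smaller changes, such as Pgk1 at 1.06-fold. CPM are counts over the scaled library size, and levels per kb use the longest GENCODE M21 transcript. The procedure was tested on simulated data.

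Members and lists were chosen with earlier results of these data known. Values in every library are given for members past the threshold by at least 1.5-fold, both genes of each isozyme pair, and Hif1a, Slc2a1, Pdk1, Vegfa, Bnip3, Ddit4, Car9 and Ankrd37; other pathway genes are named at 2-fold with a mean of 2 CPM. No libraries of a group were repeats (chi-square over degrees of freedom was 12.1 to 15.1). The deviations of same-numbered libraries correlated at 0.062, 0.025 and -0.064, so the numbers were not taken as pairs.

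The fit was repeated with other scaling (size factors of DESeq2, upper quartile), the DESeq2 1.42.0 Wald test, no filter, a mean of at least 5 CPM, a replicate block, each library left out, and copies added; the last was chosen after seeing the data. Isozyme shares were also taken from counts without division by length. The authors' own table of fold changes was not used.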

Additional observations from a re-analysis of the deposited data

How the results depend on the processing

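Of 22 members past the test, 17 kept direction and call under every alternative run, and 0 changed direction; Tpi1, Eno1, Ldha, Ldhb and Pdk3 lost the call in at least 1. Most other shifts came with upper-quartile scaling, where rises numbered 12 members in all, 3 of glucose uptake and glycolysis, 5 of lactate and pyruvate handling (with 1 fall), 1 of oxygen sensing, 3 hypoxia-induced and 10 of the other hypoxia genes. There Hk2 (0.0069), Pgam1 (0.080), Pdha1 (0.082), Egln1 (0.065) and P4ha1 (0.090) had log2 fold changes above 0, and Pgam1, Pdha1 and P4ha1 passed. With a mean of at least 5 CPM, 797 genes of all tested rose at least 1.5-fold, where fewer genes were tested, and Pgam1 (0.0059), Pdha1 (0.0071) and P4ha1 (0.016) were above 0, as was P4ha1 with no filter (0.0033). Leaving out each library gave 1 to 2 members higher at 1.5-fold, 3 to 5 called and 1 to 2 higher in lactate and pyruvate handling, log2 fold changes of -0.021 to 0.0034 for Pdha1 and -0.025 to 0.013 for P4ha1, and share differences of -0.51 to 3.76 for Aldoc and -0.026 to 0 percentage points for Slc2a3. The cause of these shifts was not tested. With a replicate block 23 members passed, 19 lower and 4 higher, and Car9 was the one gained (edgeR adjusted p = 0.038). The same-numbered libraries share only a number. For the block and for single libraries left out, the share of all genes called is not given here, beside 54.7% in the main fit. Low counts limit Car9, Slc16a3, Aldoa, Aldoc and Slc2a3, all at a few CPM or less. Eno2, which passed, was also at a few CPM, with means of 2.64 CPM in Dox and 4.80 CPM in Vehicle. For Aldoa, which gene of that symbol was counted is also uncertain.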

Other observations

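Some genes of the wider lists, chosen here after their values were seen, extend the picture to glycogen, collagen and the mitochondrial entry of pyruvate. The glycogen synthase gene Gys1 averaged 43.4 ± 0.0708 CPM in Dox and 78.9 ± 2.62 CPM in Vehicle, and the branching enzyme gene Gbe1 averaged 9.97 ± 0.929 CPM in Dox and 15.7 ± 0.380 CPM in Vehicle (SD, n = 3 each), falls of 1.82-fold and 1.57-fold. The histone demethylase gene Kdm3a fell 1.81-fold and the lysyl hydroxylase gene Plod2 1.46-fold, the collagen crosslinking gene Lox fell by 0.58 ± 0.036 on the log2 scale, and Plod1 rose 1.26-fold. Around pyruvate dehydrogenase, Pdhx, which tethers the E3 subunit, averaged 68.7 ± 1.25 CPM in Dox and 44.1 ± 0.351 CPM in Vehicle (SD, n = 3 each), a 1.56-fold rise, and the mitochondrial pyruvate carrier genes Mpc1 and Mpc2 had log2 fold changes of 0.26 ± 0.036 and 0.37 ± 0.057, both higher. The other core subunit genes Dlat and Dld did not pass, with log2 fold changes of 0.065 ± 0.035 and 0.0024 ± 0.029. Tigar, a phosphatase that lowers fructose 2,6-bisphosphate, rose 1.79-fold to 28.8 ± 0.141 CPM in Dox, against 16.1 ± 0.908 CPM in Vehicle (SD, n = 3 each). The ADP-dependent glucokinase gene Adpgk rose 1.47-fold.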
